A study of Mus musculus with 8 samples.

Results

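Addition of Satb1 by retrovirus to the mouse pro-T line Scid.adh.2c2 was compared with mock infection across all genes of the deposited count table. The comparison used the 2 Satb1 libraries and the 2 mock libraries, 4 of the 8 libraries of the series, chosen by their labels. The other groups of 2 received wild-type Runx1 (Runx1 WT) or a construct labelled Runx1 DN, which the labels do not spell out. All 4 retroviruses, the mock one included, carried GFP, infected cells were sorted 2 days after infection, and RNA came from 300000 cells per library. The labels do not say that libraries of a group came from separate cultures, so the p-values measure the spread between libraries, which may be technical.

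Satb1 is a nuclear protein abundant in thymocytes that binds AT-rich DNA prone to unpairing and tethers chromatin loops. In the mouse thymus its loss disturbs the expression of recombinase, coreceptor and lineage factor genes. Pro-T cells are early thymocytes that depend on Notch signalling and have begun to express genes of the T cell receptor machinery without yet completing a receptor.

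The table listed 24505 genes, of which 12699 had enough counts to be tested. Library totals of the mock and Satb1 groups ran from 27077550 to 33093330 counts. Levels are in CPM, which corrects each count for the total and the TMM factor of its library, and 0 counts in one of these libraries allows a level of up to 3 counts, which is 0.0953 to 0.113 CPM. Markers of the cell line were at summed levels of 3522 to 3639 CPM in mock and 3891 to 4122 CPM with Satb1, with none of the 9 at 0. B cell markers summed to at most 0.378 CPM in any of the 4 libraries and lens markers to at most 0.275 CPM.

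The added gene was read first. Satb1 was at 385 and 377 CPM in the mock libraries and 3584 and 3984 CPM in the Satb1 libraries. The groups did not overlap, and the log2 fold change was 3.31 ± 0.08 (SE, n = 2 per group; quasi-likelihood test of edgeR, Benjamini-Hochberg adjusted p = 4.9e-08). Per exon length, Satb1 went from rank 1465 of the genes tested in mock (61.6 RPKM) to rank 131 (612 RPKM), so the line already expressed Satb1 before more was added. Reads of the retroviral and the endogenous transcript cannot be told apart in these counts. Runx1, the other transduced gene of the series, was at 138 and 129 CPM in mock and 181 and 184 CPM with Satb1, a log2 difference of 0.45 ± 0.10 whose adjusted p of 0.0266 (edgeR) rose above 0.05 when any one of these 4 libraries was left out.

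Added Satb1 changed 808 genes at an adjusted p under 0.05, 6.36% of those tested (edgeR quasi-likelihood test). Of these, 416 rose (3.28%) and 392 fell (3.09%). The median size of a change was 0.84 on the log2 scale, and 146 genes (1.15%) rose and 189 (1.49%) fell at least 2-fold. The mock and Satb1 libraries of all 808 genes were without overlap in CPM. The genes were called from these same libraries, so this is no separate support. All 808 differed in the same direction within replicate number 1 and within replicate number 2, which follows from the lack of overlap. The count depended on the libraries: it was 524 without mock replicate 1, 430 without mock replicate 2, 478 without Satb1 replicate 1 and 554 without Satb1 replicate 2. In these sorted bulk samples, fewer cells of a type and less RNA per cell cannot be told apart.

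**Figure D1:**
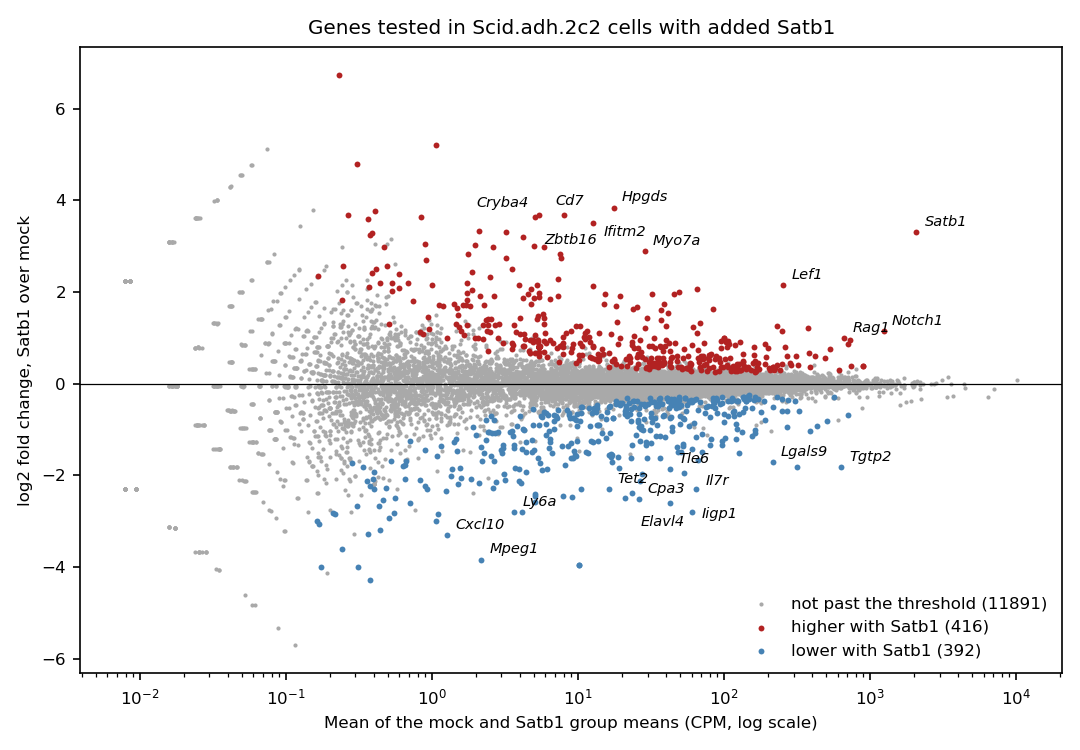
Fold change of Satb1 over mock (log2, y axis) against mean level (CPM, log x axis) for the 12699 genes tested, with genes past the threshold in red (416 higher) and blue (392 lower). Satb1 stands at the upper right, and the named genes lie on both sides of 0.

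Sequences upstream of 6 genes are shown because their genes moved together with chromosomal neighbours or with a shared pathway. Each is the stretch of 250 bases before the annotated transcription start, from RefSeq on GRCm38.p6, 5′ to 3′ on the gene's strand. Cryba4 (chr5:112252519-112252768, minus strand) and Crybb1 (chr5:112255570-112255819, plus strand) encode lens crystallins and lie next to each other. Capitals mark TATAA on either strand, the core of the TATA box, which was chosen after the gene values were seen and which 22.8% of all 32851 upstream stretches in the table held.
Cryba4: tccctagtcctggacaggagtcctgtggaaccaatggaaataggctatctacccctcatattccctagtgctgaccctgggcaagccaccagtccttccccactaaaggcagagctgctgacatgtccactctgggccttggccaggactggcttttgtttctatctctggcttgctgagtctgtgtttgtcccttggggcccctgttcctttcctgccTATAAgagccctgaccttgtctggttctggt
Crybb1: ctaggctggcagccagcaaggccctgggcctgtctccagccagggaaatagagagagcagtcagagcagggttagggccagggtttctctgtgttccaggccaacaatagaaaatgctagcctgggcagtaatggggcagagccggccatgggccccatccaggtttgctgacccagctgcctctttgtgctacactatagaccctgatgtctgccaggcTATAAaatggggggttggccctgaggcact

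Bst2 (chr8:71537473-71537722, minus strand), Ifit1 (chr19:34640639-34640888, plus strand), Cxcl10 (chr5:92348890-92349139, minus strand) and Ifitm2 (chr7:140955962-140956211, minus strand) are genes of the interferon response. The first 3 fell with added Satb1 and Ifitm2 rose. Capitals mark GAAANNGAA on either strand, letters shared by elements that interferon-activated factors bind, which were chosen after the gene values were seen and which 7.13% of all upstream stretches held. Adjoining capitals in Bst2 and Ifit1 are 2 overlapping matches.
Bst2: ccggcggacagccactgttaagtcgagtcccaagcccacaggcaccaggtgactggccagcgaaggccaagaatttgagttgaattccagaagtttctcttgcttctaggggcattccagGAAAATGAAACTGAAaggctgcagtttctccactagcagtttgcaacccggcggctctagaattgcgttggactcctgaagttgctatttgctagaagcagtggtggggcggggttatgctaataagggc
Ifit1: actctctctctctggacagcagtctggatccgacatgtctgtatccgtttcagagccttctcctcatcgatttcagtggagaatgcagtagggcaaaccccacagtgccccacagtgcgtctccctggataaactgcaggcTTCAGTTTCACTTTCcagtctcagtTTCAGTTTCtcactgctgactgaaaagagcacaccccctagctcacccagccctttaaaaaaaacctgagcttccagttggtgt
Cxcl10: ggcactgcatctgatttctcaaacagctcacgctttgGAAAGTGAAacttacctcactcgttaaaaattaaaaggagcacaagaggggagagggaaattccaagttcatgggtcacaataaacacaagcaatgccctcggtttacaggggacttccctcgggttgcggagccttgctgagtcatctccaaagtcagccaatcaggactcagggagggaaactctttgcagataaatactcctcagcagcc
Ifitm2: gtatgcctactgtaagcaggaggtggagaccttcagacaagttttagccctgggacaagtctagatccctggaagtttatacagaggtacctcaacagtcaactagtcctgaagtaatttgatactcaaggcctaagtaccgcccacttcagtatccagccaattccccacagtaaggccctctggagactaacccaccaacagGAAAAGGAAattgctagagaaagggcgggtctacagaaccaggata

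Bst2 held 2 matches, Ifit1 held 3, and Cxcl10 and Ifitm2 held 1 each. The genes that fell and the gene that rose therefore both had the letters, and none of the 6 stretches held AATATATT, the core of a base-unpairing region, which 0.478% of all stretches held. These matches describe the letters only.

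Among T lineage genes, Lef1 rose most by level. Lef1, an HMG-box factor of the Tcf family that acts with beta-catenin, was at 98.2 and 89.0 CPM in mock and 442 and 389 CPM with Satb1, a log2 fold change of 2.15 ± 0.09 (adjusted p = 8.32e-07, edgeR). Both Satb1 libraries also lay above the Runx1 WT mean of 165 CPM and the Runx1 DN mean of 66.6 CPM, and Lef1 was higher than all 3 other groups in the edgeR fit. Lck, the kinase that starts T cell receptor signalling, went from 294 and 293 to 474 and 457 CPM (0.67 ± 0.07 log2). Cd2, an adhesion receptor of T cells, went from 12 and 9.13 to 29.7 and 23.5 CPM (1.34 ± 0.16 log2). Lat, the membrane adaptor downstream of the receptor, moved the other way, from 66.7 and 65.2 to 41.5 and 36.4 CPM (-0.76 ± 0.10 log2), and the groups of each of these genes were apart.

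Of 26 T lineage genes tested, 6 rose and 1 fell, against 3.28% and 3.09% of all genes, with a median log2 fold change of 0.07 against -0.0040 over all genes. The other 3 that rose, named after their values were seen, were Ets2 (0.42 ± 0.09), Cd3g (0.32 ± 0.07) and Cd5 (2.56 ± 0.58), the last from 1 and 3 counts in mock to 12 and 14 counts with Satb1. When each of these 4 libraries was left out in turn, 3, 3, 3 and 4 members rose. The central T lineage factors did not pass the test: Tcf7 was at 1226 and 1240.0 CPM in mock and 1243 and 1309.9 CPM with Satb1 (0.05 ± 0.07 log2), Bcl11b differed by 0.09 ± 0.09 and Gata3 by -0.21 ± 0.12.

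The recombinase genes Rag1 and Rag2 both rose. Rag1, which cuts antigen receptor genes together with Rag2, was at 489.6 and 396 CPM in mock and 942 and 827 CPM with Satb1, a log2 fold change of 1.00 ± 0.11 (edgeR adjusted p = 0.000397). Rag2 was at 2.38 and 3.19 CPM in mock and 8.93 and 11.1 CPM with Satb1, a log2 fold change of 1.84 ± 0.20 (edgeR adjusted p = 0.000422). The groups of both genes were apart, and both were higher with Satb1 than in either Runx1 group, where Rag1 averaged 114 CPM with Runx1 WT and 31.5 CPM with Runx1 DN. The span of Rag2 overlaps another row of the table, and the counts did not use strand. Ptcra, which encodes the pre-T cell receptor alpha chain, rose from 70.8 and 69.6 to 105 and 106 CPM (0.59 ± 0.10 log2). Lig4, the ligase that closes recombination breaks, fell from 39.1 and 37.6 to 24.6 and 24.5 CPM (-0.64 ± 0.08 log2).

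Of 14 pre-TCR and recombination genes, 4 rose and 1 fell, against 3.28% and 3.09% of all genes, with a median of 0.11 (0.21 without Satb1 replicate 1). The remaining gene that rose, named after its values were seen, was Xrcc6 (0.30 ± 0.07 log2), which encodes the Ku70 end-binding subunit.

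A group of Notch response genes rose, 8 of 15 tested. Notch1, the receptor that drives T lineage entry, was at 814 and 731 CPM in mock and 1835 and 1572 CPM with Satb1, a log2 fold change of 1.14 ± 0.10 (edgeR adjusted p = 0.000124). Nrarp, a Notch target that dampens the pathway, was at 470.0 and 525 CPM in mock and 952 and 973 CPM with Satb1 (0.95 ± 0.11 log2). Dtx1, a ubiquitin ligase and Notch target, was at 482 and 519.9 CPM in mock and 949 and 866 CPM with Satb1 (0.86 ± 0.10 log2). For each of the 3, both Satb1 libraries lay above both mock libraries.

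Notch3, a second Notch receptor, went from 139 and 158 to 256 and 253 CPM (0.77 ± 0.08 log2), and Deptor, an inhibitor of mTOR kinase, from 64.7 and 69.9 to 142 and 127 CPM (1.00 ± 0.11 log2). In all, 8 of the 15 Notch response genes tested rose and 0 fell, against 3.28% and 3.09% of all genes, and the median was 0.77 (7 of 16 tested rose without any one of these 4 libraries). Hes5 rose (0.83 ± 0.14 log2, named after its values were seen). Hes1, another classical target, differed by -0.08 ± 0.12 with overlapping libraries, and Notch2 by -0.38 ± 0.12, neither past the test. Runx1 DN libraries held Notch1 at a mean of 1657 CPM and Runx1 WT libraries at 307 CPM.

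**Figure D2:**
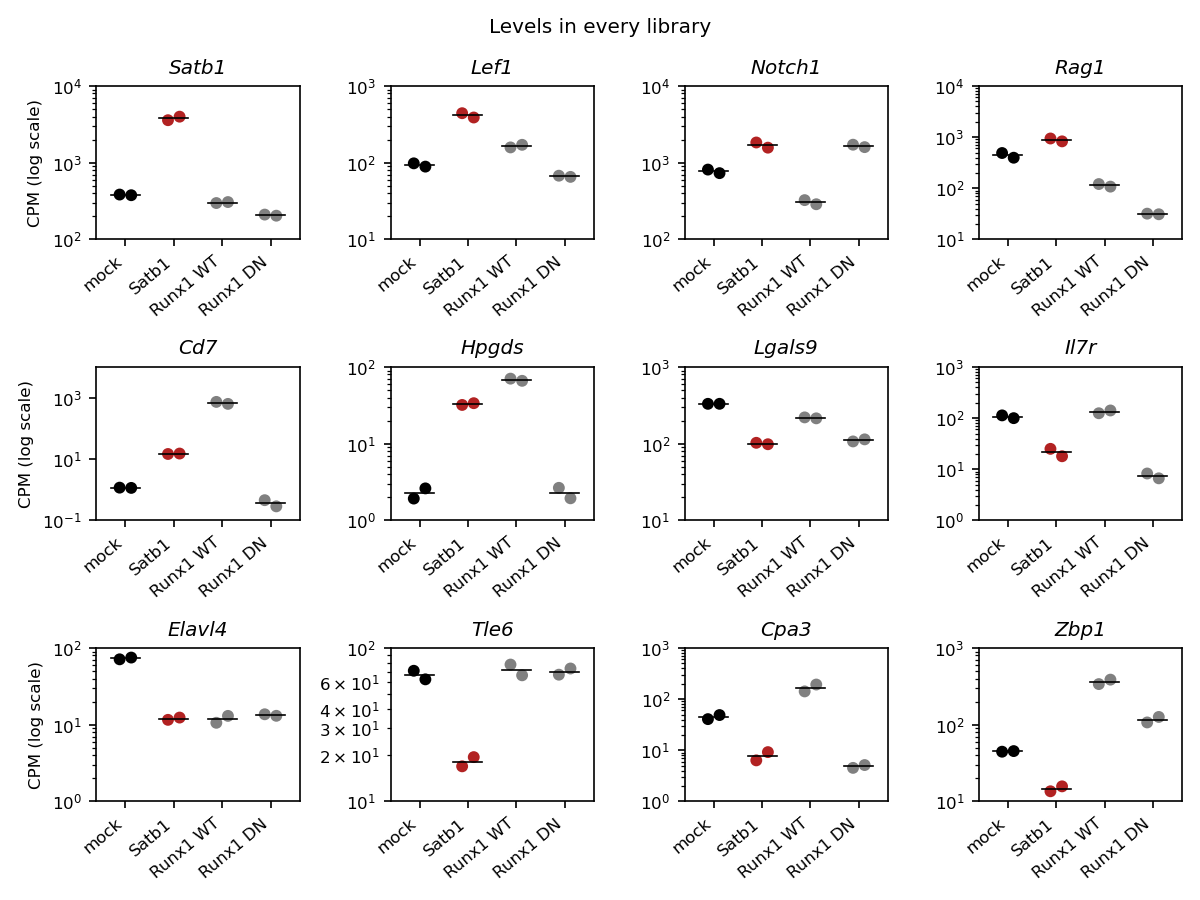
CPM (log y axis) of 12 genes in each library, 2 points per group, with a line at the group mean. The Satb1 points (red) lie above mock for Satb1, Lef1, Notch1, Rag1, Cd7 and Hpgds and below mock for Lgals9, Il7r, Elavl4, Tle6, Cpa3 and Zbp1.

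The largest rises by fold included genes low or near silent in mock cells. Hpgds, the haematopoietic prostaglandin D synthase, was at 1.93 and 2.62 CPM in mock and 32.0 and 33.8 CPM with Satb1, a log2 fold change of 3.84 ± 0.15 (edgeR adjusted p = 7.72e-07). Cd7, a surface glycoprotein of early T and natural killer cells, was at 1.17 and 1.15 CPM in mock and 14.6 and 15.1 CPM with Satb1 (3.68 ± 0.14 log2). Zbtb16, the factor PLZF of innate-like lymphocytes, was at 0.983 and 1.21 CPM in mock and 9.35 and 8.52 CPM with Satb1 (3.01 ± 0.24 log2). The groups of all 3 were apart, and with Runx1 WT the genes averaged 68.3, 679 and 14.5 CPM.

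Of 17 natural killer, innate lymphoid and cytotoxic genes, 4 rose and 2 fell, against 3.28% and 3.09% of all genes. The median was 0.20, and 0.07, 1.05, 0.32 and 0.02 without mock replicate 1, mock replicate 2, Satb1 replicate 1 and Satb1 replicate 2. Cd160, a receptor of cytotoxic lymphocytes, rose from 5.67 and 5.91 to 15.3 and 12.3 CPM (1.25 ± 0.14 log2), and Nkg7 rose by 2.05 ± 0.28. Gzma, which encodes granzyme A, fell from 106 and 119 to 47.1 and 51.2 CPM (-1.2 ± 0.09 log2), and Tbx21, the factor T-bet, changed by -0.91 ± 0.14 (log2 change). Nkg7 and Tbx21 were named after their values were seen. The 5 NK and innate lymphoid cell type markers summed to 57.0 to 68.4 CPM in mock and 73.6 to 85.4 CPM with Satb1, with 1 of 5 at 0. Id2 made up most of these sums, at 55.8 and 67.2 CPM in mock and 64.1 and 76.85 CPM with Satb1. The part of these markers in these differences was not tested.

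Myo7a, an unconventional myosin of sensory hair cells, was at 6.69 and 6.90 CPM in mock and 48.2 and 52.6 CPM with Satb1 (2.89 ± 0.16 log2), and was higher than in all 3 other groups. Ptprf, a receptor tyrosine phosphatase, Cdh15, a muscle cadherin, and Sept4, a septin, rose by 2.98 ± 0.30, 2.98 ± 0.26 and 3.03 ± 0.33. Without mock replicate 2 the Sept4 value was 3.94. Fcgbp, a mucus protein that binds IgG Fc, had 3 counts over both mock libraries and 126 over both Satb1 libraries, a ratio of 40.1 (95% counting interval 13.4 to 196.8), and all 3 mock counts lay in replicate 2. By level, Zfp36l2, an RNA-binding protein that promotes mRNA decay, rose from 213 and 240.1 to 487 and 555 CPM (1.2 ± 0.10 log2). Calm2, which encodes the calcium sensor calmodulin, rose from 403 and 395 to 694 and 653 CPM (0.76 ± 0.07 log2).

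Among genes of thymocyte maturation and migration, Il7r fell furthest of those past the test. Il7r, the receptor for the survival cytokine interleukin 7, was at 113 and 100 CPM in mock and 25.1 and 18 CPM with Satb1, a log2 fold change of -2.31 ± 0.15 (edgeR adjusted p = 1.58e-05). Ccr4, a chemokine receptor, rose from 11.1 and 12.3 to 37.0 and 35.1 CPM (1.62 ± 0.11 log2). The groups of both genes were apart, and Ccr4 was higher than in all 3 other groups.

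Itgae, the integrin CD103 chain, rose from 1.21 and 2.39 to 6.97 and 8.49 CPM (2.07 ± 0.22 log2, and 2.67 without mock replicate 2). In all, 4 of 20 members rose and 3 fell (5 without mock replicate 1), against 3.28% and 3.09% of all genes. The median was -0.31, and -0.35, -0.03, -0.13 and -0.36 when mock replicates 1 and 2 and Satb1 replicates 1 and 2 were left out in turn. Others past the test were Ccr9, a gut and thymus homing receptor, at 0.92 ± 0.17, and Tox, a factor of CD4 lineage development, at -0.84 ± 0.10, both named after their values were seen, and Zbtb7b, the CD4 lineage factor ThPOK, at -0.64 ± 0.10.

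Among 22 genes of cytokine receptors and their signalling, 2 rose and 6 fell, against 3.28% and 3.09% of all genes, with a median of -0.06 (0.07 without mock replicate 2). Ifngr2 and Ifngr1, the chains of the interferon gamma receptor, changed by -0.70 ± 0.13 and -0.68 ± 0.13 (log2 changes), Ifngr2 losing its call without mock replicate 2 or Satb1 replicate 1. Il21r changed by -1.48 ± 0.32 and Stat3 by -0.33 ± 0.08 (log2 changes). Socs2, a feedback inhibitor, rose from 1.93 and 1.85 to 3.68 and 3.88 CPM (1.00 ± 0.17 log2), a call lost without mock replicate 2. Il2ra, the interleukin 2 receptor alpha chain, rose from 550.0 and 547 to 667 and 688 CPM, a log2 fold change of 0.30 ± 0.06 whose call was lost without any one of these 4 libraries. Ifngr1, Il21r and Stat3 were named after their values were seen. Without mock replicate 2, 0 members rose and 3 fell, and without Satb1 replicate 1, 2 rose and 3 fell.

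Among 33 listed interferon response genes, those past the test fell, with 1 exception. Bst2, the membrane protein tetherin that retains budding virus, was at 178 and 183 CPM in mock and 83.9 and 89.2 CPM with Satb1, a log2 fold change of -1.06 ± 0.07 (edgeR adjusted p = 1.99e-05). Zbp1, a sensor of left-handed nucleic acid, was at 44.5 and 45.3 CPM in mock and 13.6 and 15.7 CPM with Satb1 (-1.61 ± 0.11 log2). Irf7, a factor that amplifies the response, was at 26.6 and 29.9 CPM in mock and 8.28 and 10.2 CPM with Satb1 (-1.61 ± 0.15 log2). All 3 were lower with Satb1 than in each of the 3 other groups, and Runx1 WT libraries averaged 612, 363 and 310.1 CPM.

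Of 33 interferon response genes tested, 21 fell and 1 rose, against 3.09% and 3.28% of all genes, and the median log2 fold change was -0.93. In all, 32 of the 33 fitted values were below 0, and the medians were -1.09 within replicate number 1 and -0.97 within number 2. The number that fell was 22 without mock replicate 1, 10 without mock replicate 2, 12 without Satb1 replicate 1 and 17 without Satb1 replicate 2, and the medians then ran from -0.83 to -1.13. It was 13 by limma-voom, 12 by limma-voom after quantile normalization, 14 with robust empirical Bayes in edgeR and 23 by DESeq2. Ifit1, an RNA-binding antiviral protein whose upstream letters are shown above, was at 12 and 22.9 CPM in mock and 2.89 and 4.26 CPM with Satb1 (-2.29 ± 0.44 log2). Its call was lost without mock replicate 2 or Satb1 replicate 1. Oasl2, a relative of the antiviral oligoadenylate synthetases, was at 3.71 and 4.98 CPM in mock and 1.10 and 0.699 CPM with Satb1 (-2.29 ± 0.43 log2). Oasl2 lost its call without either library numbered 2. The calls of Ifit1 and Oasl2 were also lost by limma-voom, with or without quantile normalization, and with robust empirical Bayes in edgeR.

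The genes of this paragraph are not in that list and fell as well. Cxcl10, an interferon-induced chemokine, was at 2.08 and 2.55 CPM in mock and 0.137 and 0.318 CPM with Satb1, a log2 fold change of -3.31 ± 0.37 (edgeR adjusted p = 0.00042, and -4.04 without Satb1 replicate 2). Iigp1, an immunity-related GTPase, was at 109.9 and 101 CPM in mock and 10.6 and 19.4 CPM with Satb1 (-2.81 ± 0.22 log2). Tgtp2, a T cell GTPase of the same class, was at 1016 and 953 CPM in mock and 203 and 354 CPM with Satb1 (-1.82 ± 0.21 log2). Tgtp1 had the same log2 fold change of -1.82 ± 0.21, and the pair are near copies that each overlap another row, so their reads cannot be told apart with certainty. Gvin1, a very large interferon-inducible GTPase, fell from 19.5 and 18.7 to 1.31 and 1.14 CPM (-3.96 ± 0.41 log2) and also overlaps other rows.

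The exception in the list was Ifitm3, which with Ifitm2 encodes a membrane protein that blocks virus entry. Ifitm3 rose from 0.378 and 0.479 to 2.82 and 3.37 CPM (2.83 ± 0.34 log2). Ifitm2, which is not in the list, rose from 1.78 and 2.33 to 23.2 and 23.7 CPM (3.50 ± 0.17 log2) and was higher than in all 3 other groups. Also outside the list, the neighbours Ifi211, Ifi202b and Ifi205 on chromosome 1 rose. Ifi205 went from 3 counts over both mock libraries to 41 over both Satb1 libraries. Stretches of Oas and Gbp genes fell. Of 18 MHC class I genes 2 fell, with a median of -0.15: the peptide transporter genes Tap1 (-0.63 ± 0.09) and Tap2 (-0.31 ± 0.07), named after their values were seen.

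**Figure D3:**
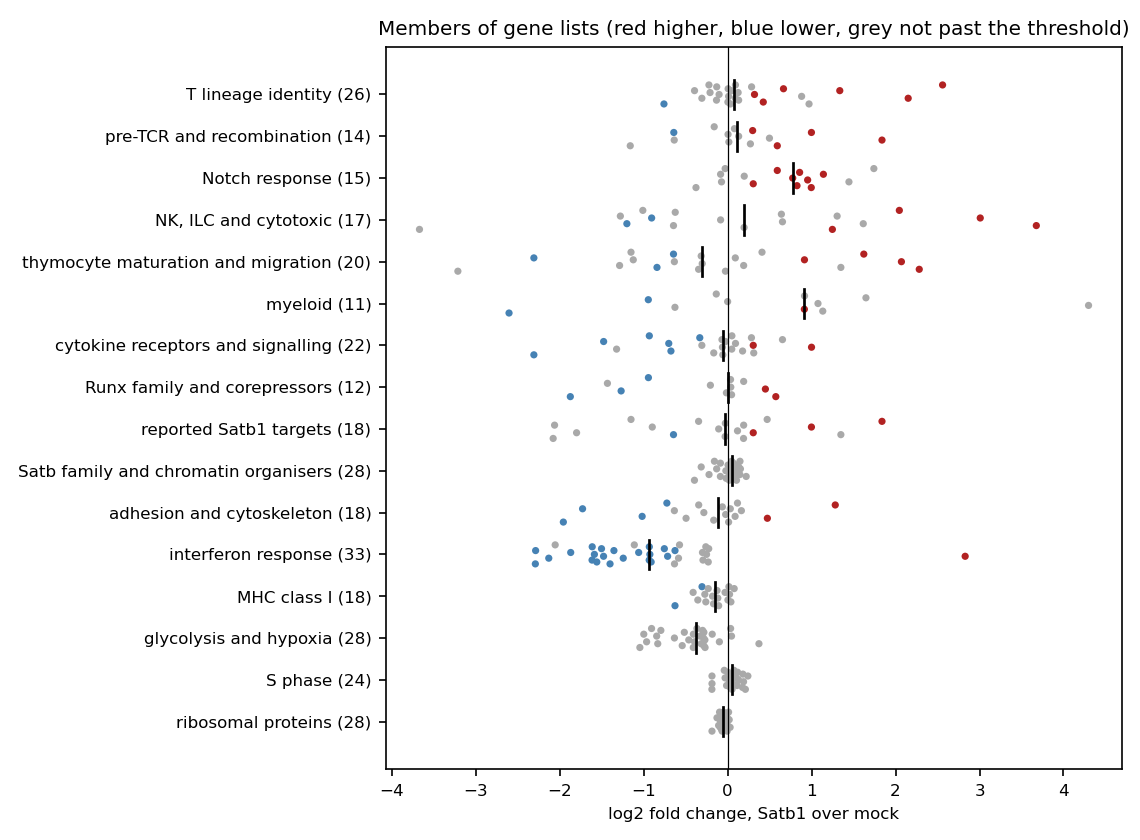
Fold change of Satb1 over mock (log2, x axis) for each tested member of 16 gene lists, with the number tested in brackets and a black line at the median. Interferon response genes lie left of 0 with 1 member past the test on the right, and Notch response genes past the test lie on the right.

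Other large falls were in genes of diverse roles. Lgals9, the lectin galectin 9, was at 331 and 331 CPM in mock and 103 and 98.5 CPM with Satb1, a log2 fold change of -1.72 ± 0.07 (edgeR adjusted p = 7.72e-07). Elavl4, an RNA-binding protein of neurons, was at 71.2 and 75.1 CPM in mock and 11.6 and 12.4 CPM with Satb1 (-2.61 ± 0.11 log2), and stood at 11.8 CPM with Runx1 WT and 13.4 CPM with Runx1 DN. Tet2, an enzyme that oxidises methylated cytosine, was at 24.1 and 30.4 CPM in mock and 3.64 and 7.31 CPM with Satb1 (-2.31 ± 0.31 log2, and -2.90 without Satb1 replicate 2). All 3 genes had groups that were apart.

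Cpa3, the mast cell carboxypeptidase, fell from 40.7 and 48.9 to 6.36 and 9.22 CPM (-2.52 ± 0.19 log2). It made up most of the erythroid, mast and megakaryocyte markers, whose 4 genes summed to 43.5 to 51.3 CPM in mock and 8.31 to 10.6 CPM with Satb1, with 1 of 4 at 0. Mpeg1, the pore-forming protein perforin-2 of phagocytes, fell from 4.01 and 4.15 to 0.206 and 0.350 CPM (-3.84 ± 0.48 log2). Myeloid markers summed to 7.41 to 10.6 CPM in mock and 13.2 to 21.5 CPM with Satb1, with none of 5 at 0 in all 4 libraries. Itgam made up most of these sums, at 7.18 and 9.48 CPM in mock and 12.1 and 19.4 CPM with Satb1. Csf1r and Mpo had 0 counts in both mock libraries. The part of these markers in these differences was not tested. Of 11 myeloid genes, against 3.28% higher and 3.09% lower over all genes, 1 rose, Itgam (0.91 ± 0.21), and 2 fell, Cybb (-2.60 ± 0.56, and -4.07 without Satb1 replicate 2) and Fcer1g (-0.94 ± 0.24). Limma-voom called 0 of the 11. All 3 of the edgeR calls were lost without at least 1 of these 4 libraries: Itgam without mock replicate 1 or Satb1 replicate 2, Cybb without mock replicate 2 or Satb1 replicate 1, and Fcer1g without mock replicate 2 or either Satb1 library.

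Ly6a, the surface antigen Sca-1, fell from 5.86 and 6.99 to 0.756 and 1.08 CPM (-2.80 ± 0.22 log2). Cadm1, an immunoglobulin-type adhesion protein, fell from 7.64 and 9.74 to 1.37 and 1.53 CPM (-2.58 ± 0.19 log2), and Thsd7b from 34.1 and 37.4 to 5.6 and 6.99 CPM (-2.50 ± 0.16 log2). Ppfia2, a liprin scaffold protein, changed by -2.35 ± 0.42, and by -3.33 without Satb1 replicate 2. By level, Chd3, a chromatin remodeller of the NuRD complex, fell from 650.4 and 639 to 335 and 396 CPM (-0.82 ± 0.09 log2). Aldh1b1, a mitochondrial aldehyde dehydrogenase, fell from 518 and 530.3 to 265 and 249 CPM (-1.03 ± 0.10 log2).

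Of 18 adhesion and cytoskeleton genes, 2 rose and 4 fell, against 3.28% and 3.09% of all genes. The median was -0.11, and ran from -0.28 without mock replicate 1 to -0.03 without mock replicate 2 or Satb1 replicate 1. Lgals1, the lectin galectin 1, fell from 220.0 and 217 to 109 and 106 CPM (-1.02 ± 0.09 log2). Ahnak, a giant scaffold protein, fell from 80.2 and 90.6 to 27.7 and 16.4 CPM (-1.96 ± 0.23 log2), Emp3, a membrane protein, changed by -1.73 ± 0.23 and Itga4, the alpha 4 integrin chain, by -0.72 ± 0.10 (log2 changes). The 2 that rose, Itgal (0.47 ± 0.08) and Lgals3 (1.28 ± 0.30), were named after their values were seen, and 0 rose without mock replicate 1 or without Satb1 replicate 1.

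Runx genes and their corepressors split by member. Tle6, a Groucho-family protein, was at 71.1 and 62.5 CPM in mock and 16.9 and 19.5 CPM with Satb1, a log2 fold change of -1.87 ± 0.11 (edgeR adjusted p = 9.58e-06). Tle2, a Groucho corepressor, was at 46.9 and 36.2 CPM in mock and 16.8 and 17.6 CPM with Satb1 (-1.27 ± 0.12 log2). Aes, a short Groucho relative, was at 367 and 349 CPM in mock and 179 and 194 CPM with Satb1 (-0.94 ± 0.10 log2). All 3 were lower than in each of the 3 other groups. Tle3, another corepressor, rose from 154 and 156 to 233 and 230.0 CPM (0.57 ± 0.06 log2). In all, 2 of 12 rose, Tle3 and Runx1 (1 without any one of these 4 libraries), and 3 fell, against 3.28% and 3.09% of all genes. The median was 0.01, and ran from -0.05 to 0.02 when these libraries were left out in turn.

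Of 18 genes reported elsewhere as Satb1 targets, 3 rose (Rag1, Rag2 and Il2ra) and 1 fell (Zbtb7b; 2 fell without mock replicate 1), against 3.28% and 3.09% of all genes. The median was -0.03, and 0.09 without mock replicate 2 and 0.02 without Satb1 replicate 1. The type 2 cytokine gene Il4 was near the limit of the counts, at 0.340 and 0.383 CPM in mock and 0.103 and 0.0636 CPM with Satb1, and did not pass the test. Of 28 Satb-family partners and chromatin organisers, 0 passed the edgeR test, 5 had an unadjusted p under 0.05, and DESeq2 called 2 and limma-voom 0. Their log2 fold changes ran from -0.40 to 0.22, and Ctcf, the insulator-binding factor, differed by 0.11 ± 0.06.

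The positions of genes past the test were described, with no test. Within 100 kb (distance between gene starts, spans not overlapping), 100 of the 416 genes that rose had another that rose (24.0%), against 7.68% of all genes tested and 5.87% of the genes that fell. Of the 392 that fell, 93 had another that fell (23.7%), against 7.88% of all genes tested and 4.81% of the genes that rose. Leaving out pairs whose symbols share their first 3 letters, an alternative added after seeing the data, gave 21.6% against 7.26% for rises and 15.3% against 7.28% for falls. Relatives with unlike symbols, such as Aes and Tle2, stayed in, so gene families were not fully left out.

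Stretches with at least 3 such neighbours numbered 17, of which 6 held rises and 11 held falls, and their genes were named after their values were seen. The stretch with the crystallin genes (mm9, chromosome 5, 112642248 to 113006218) held 8 tested genes, of which 6 rose. Cryba4 was at 0.718 and 0.830 CPM in mock and 9.52 and 10.5 CPM with Satb1 (3.68 ± 0.17 log2), and Crybb1 at 0.567 and 1.05 and 6.63 and 8.58 CPM (3.20 ± 0.25 log2), with no overlap between groups. Miat, a long noncoding RNA beside them, rose from 0.227 and 0.511 to 2.89 and 4.77 CPM (3.33 ± 0.38 log2, and 4.06 without mock replicate 2).

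In the same stretch Tpst2, a tyrosine sulfotransferase, rose by 0.92 ± 0.09 and Tfip11, a splicing factor, by 0.31 ± 0.07. Sez6l went from 2 to 30 counts summed over each group, a ratio of 14.3 (95% counting interval 3.63 to 123.5). Srrd and Hps4, between Tfip11 and Sez6l, differed by 0.27 ± 0.09 and 0.20 ± 0.07 and did not pass the test. The crystallin genes Cryba4 and Crybb1 averaged 23.9 and 11.9 CPM with Runx1 WT and 2.27 and 7.48 CPM with Runx1 DN. The 5 lens markers summed to at most 0.275 CPM with Satb1, with 2 of 5 at 0. The third crystallin gene tested, Cryab, had 0 counts in both mock libraries and at most 2 in a Satb1 library.

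The Ifitm stretch (mm9, chromosome 7, 148140738 to 148258018) held 4 tested genes, all of which rose: Ifitm2, Ifitm1, Ifitm3 and B4galnt4, a glycosyltransferase, at 1.05 ± 0.26. Ifitm1 went from 3 counts over both mock libraries to 46 over both Satb1 libraries, a ratio of 14.6 (95% counting interval 4.70 to 73.5). Camk2a, a calmodulin-dependent kinase, rose from 0.605 and 0.575 to 5.74 and 6.04 CPM (3.31 ± 0.27 log2). Both Runx1 groups also held Camk2a above mock, at means of 7.55 CPM with Runx1 WT and 18.8 CPM with Runx1 DN. Its neighbours Pdgfrb, a growth factor receptor, and Arsi, a sulfatase, rose by 2.07 ± 0.09 and 1.24 ± 0.11, with Slc6a7 between them.

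Falls formed stretches as well. Aes, Tle2, Tle6 and BC025920 (-1.05 ± 0.21) were all 4 of the tested genes in 50.4 kb (mm9, chromosome 10, 81022189 to 81072581), and all fell. Of 7 tested genes in the Ms4a stretch (mm9, chromosome 19, 11482151 to 11679294), 6 fell, among them Ms4a4b, a membrane protein of T cells, from 6.39 and 8.11 to 0.790 and 1.27 CPM (-2.80 ± 0.29 log2). Of 8 tested genes in the Oas stretch (mm9, chromosome 5, 121180342 to 121357534), 5 fell, all antiviral oligoadenylate synthetases. Reads may be split between near copies within the Oas, Gbp and Ms4a families. None of the 17 stretches held a gene past the test in the other direction. Each stretch ended at its outermost genes of that direction, so flanking genes were not counted. Dtx1, which rose, lies just before the Oas stretch (mm9, chromosome 5, 121130273 to 121161678).

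**Figure D4:**
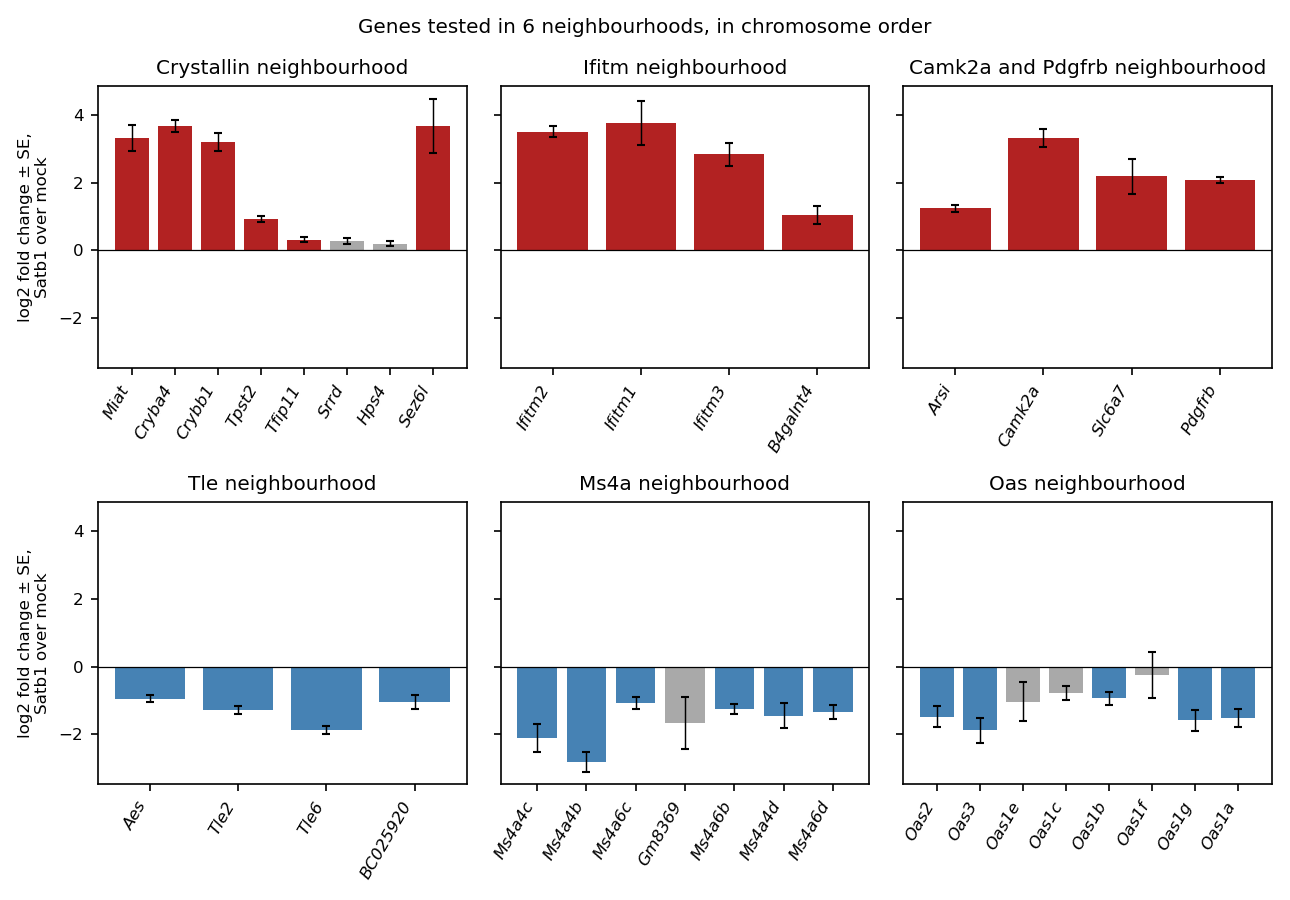
Log2 fold change of Satb1 over mock with its standard error for every tested gene in 6 stretches, in chromosome order, red higher, blue lower and grey not past the test. Bars of one stretch point the same way, and Ifitm1, Slc6a7 and Sez6l rest on few mock counts.

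Cell division and protein synthesis genes were read against the 6.36% of all genes that passed. Of 24 S phase genes 0 passed the edgeR test (6 at an unadjusted p under 0.05; DESeq2 called 1 and limma-voom 0). Of 22 G2/M genes 1 rose, the mitotic kinesin gene Kif20a (0.30 ± 0.07 log2, named after its values were seen). Of 28 ribosomal protein genes 0 passed by edgeR, DESeq2 or limma-voom, and 0 had an unadjusted p under 0.05.

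Genes of glycolysis and the hypoxia response differed between replicate numbers. Of 28 tested, 0 passed the edgeR test, 3 had an unadjusted p under 0.05, and DESeq2 and limma-voom called 0. Replicate 2 exceeded replicate 1 by a median of 0.82 on the log2 scale in mock (28 of 28 genes) and 1.12 in Satb1 (27 of 28 genes). Pgk1, a glycolytic kinase, was at 1487 and 2540.2 CPM in mock and 809 and 2227 CPM with Satb1, so its groups overlapped. The median difference of Satb1 from mock was -0.38. Within replicate number 1 it was -0.54, with 26 of 28 genes below 0, and within number 2 it was -0.26, with 25 of 28 below 0. It was -0.75 without mock replicate 1, with 1 gene lower, 0.11 without mock replicate 2, with 1 gene higher, 0.07 without Satb1 replicate 1, and -1.11 without Satb1 replicate 2, with 11 genes lower. Interferon response genes were higher in replicate 2 than in replicate 1 for 27 of 33 genes in both groups, by medians of 0.25 in mock and 0.19 in Satb1.

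**Figure D5:**
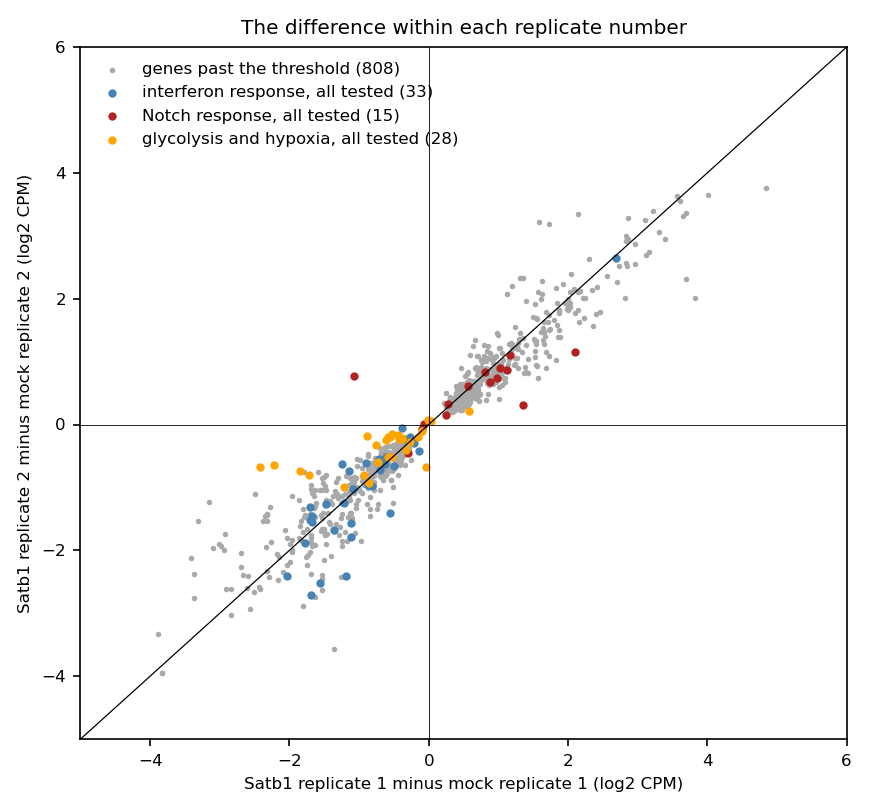
Difference of Satb1 from mock in log2 CPM within replicate number 1 (x axis) and number 2 (y axis), with the line of equal values. The 808 genes past the threshold lie in the quadrants where both differences have one sign, which follows from their groups not overlapping. Interferon response genes (33) lie low in both and glycolysis and hypoxia genes (28) lie further below 0 in number 1.

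Set against all other groups, 303 genes differed with Satb1 in one direction from mock, Runx1 WT and Runx1 DN alike. Of these 123 were higher (0.969%) and 180 lower (1.42%), from 3 contrasts that share the Satb1 libraries. The single contrasts called 9004 genes against Runx1 WT (70.9%) and 4825 against Runx1 DN (38%). Without one of the mock or Satb1 libraries the 303 became 231, 169, 164 and 216, in the order mock replicate 1, mock replicate 2, Satb1 replicate 1 and Satb1 replicate 2. Of the 33 interferon response genes, 21 were among those lower than all 3 groups.

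In the authors' deposited table, 1010 genes had an adjusted p under 0.05 for Satb1 against mock, 494 higher and 516 lower. Of the 990 of them tested here, 768 were called in both with the same sign, and 40 genes were called here only.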

How the data were processed

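Per the labels' protocols, the library kit kept no strand information and single reads of 50 nt were sequenced. Per the file headers, the deposited table holds unscaled read counts over exons, which the authors obtained with HOMER on mm9. The authors' deposited log2 fold changes and p-values came from edgeR through HOMER, per the file headers. The submitters' processing notes also name STAR 2.4.0, Trimmomatic 033, edgeR 3.6.8 and RSEM 1.2.25.

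Counts of all 8 libraries were refitted in R 4.3.3 with edgeR 4.0.16: filterByExpr (minimum count 10, minimum total 15), TMM factors, glmQLFit by group, glmQLFTest of Satb1 minus mock, and Benjamini-Hochberg adjustment over 12699 genes at 0.05. The 4 groups share one estimate of the spread. The procedure was checked on simulated data. limma 3.58.1 and DESeq2 1.42.0 served as alternatives. Replicate libraries differed by far more than sampling noise (chi-square per degree of freedom 14.75 in mock and 18.5 in Satb1). Of the 808 genes called, 149 overlap the span of another row and 14 share all counts with another row. Floors and counting intervals take in counting error alone: without molecular identifiers, reads do not stand for independent molecules.

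Genes were named by rule: Satb1 and Runx1, the 15 largest rises and 15 largest falls by fold among genes past the threshold without overlap and with at least 2 CPM in the higher group, the 8 largest rises and falls in CPM, crystallins, and up to 4 members of lists with at least 3 members past the threshold. All other genes were named after their values were seen, and 3 genes that the rule names are not reported here. Gene lists and members were chosen with earlier results of these data known. Gene symbols and mm9 coordinates are the table's. Promoter stretches matched 78.7% of genes tested, 73.8% of those that rose and 67.9% of those that fell. With under 80% matched, the comparison of AT share and AATATATT between gene sets was void and is not given.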

Additional observations from a re-analysis of the deposited data

How the results depend on the processing

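None of the 808 genes past the threshold changed sign in an alternative in which it was tested; some alternatives tested fewer genes (10993 with a minimum count of 50, 11813 with mock and Satb1 libraries alone). Over the named genes, 1729 values stayed on their side of the threshold, 62 lost their call and 0 reversed.

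The counts of genes called, higher, lower and apart from all 3 other groups (808, 416, 392 and 303) stayed within 1.5 times under RLE, upper quartile or library-size scaling, quantile normalization, limma-voom, DESeq2, no filter, a minimum count of 50 and robust empirical Bayes. This covers those 4 counts and not the lists: of 33 interferon response genes 21 fell, but 13 by limma-voom, 12 with quantile normalization and 14 with robust empirical Bayes. Leaving out one library in turn gave 430 to 839 called, 227 to 432 higher, 193 to 407 lower and 164 to 318 apart. With the libraries numbered 1 alone in the mock and Satb1 groups, they were 314, 152, 162 and 136, and with those numbered 2 alone 297, 141, 156 and 129, the lone library being assumed to vary like the other groups. Fewer libraries entered these fits.

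Same-numbered libraries share only a number in the labels. The correlation across genes of their replicate difference was 0.392 between mock and Satb1 and 0.0682 to 0.193 between other groups. With a replicate block over all 8 libraries, 1265 genes were called (630 higher, 635 lower, 474 apart). With the block for mock and Satb1 only, 1079 were called (522 higher, 557 lower, 379 apart), and 18 glycolysis and hypoxia genes passed (1 higher, 17 lower). With mock and Satb1 libraries alone and the replicate block, 3640 were called (1708 higher, 1932 lower), among them 24 glycolysis and hypoxia genes (1 higher, 23 lower). Other lists with 0 calls in the main fit also gained calls. Of 28 Satb-family partners and chromatin organisers, 3 passed with the block over all 8 libraries (1 higher, 2 lower). With mock and Satb1 libraries alone and the block, 13 of them passed (8 higher, 5 lower). Of 24 S phase genes, these 2 fits called 0 and 11 (8 higher, 3 lower). The cause was not tested.

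The share of genes with a neighbour of the same direction was 54.6% for rises and 55.1% for falls within 1000 kb, where 42.3% and 40.3% of all genes had one, and 15.3% for falls without pairs sharing their first 3 letters. With 2 libraries a group, genes near the floor of 3 counts have wide errors.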

Other observations

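In the smaller lists, counts are given beside the 6.36% of all genes that passed the test, and nothing is read from those near that share. Of 19 Polycomb and DNA methylation genes, 0 rose and 2 fell, Tet2 and its relative Tet3 (-0.37 ± 0.09 log2), while the maintenance methyltransferase gene Dnmt1 differed by 0.01. Of 10 Bcl2 family genes, the proapoptotic Bid rose (0.54 ± 0.09 log2) and the proapoptotic Bmf fell (-0.71 ± 0.12 log2). Of 14 p53 target genes, 1 rose, Trp53inp1 (0.84 ± 0.08 log2). Of 19 cholesterol synthesis genes, 1 rose, Idi1 (0.41 ± 0.10 log2), and 17 had fitted values above 0, with a median of 0.18. Of 15 T cell receptor feedback genes, Cd5 rose and the phosphatase gene Dusp2 fell (-0.59 ± 0.14 log2). All were named after their values were seen.

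Of 5 B lineage genes, the inhibitory receptor gene Cd22 rose (1.14 ± 0.17 log2) and the coactivator gene Pou2af1 fell (-0.89 ± 0.12 log2), and of 5 stem and progenitor genes Erg fell (-2.23 ± 0.56 log2). Of 8 RNA quality genes 1 fell, the nuclear long noncoding RNA Neat1 (-0.62 ± 0.12 log2). Of 12 cell cycle inhibitor and D cyclin genes, 14 unfolded protein response genes and 22 oxidative phosphorylation genes, 0 passed the edgeR test, with 3, 3 and 2 at an unadjusted p under 0.05 and 0 called by DESeq2 or limma-voom in each.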
